A study of Mus musculus with 12 samples.

Results

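Doxorubicin (DOX), given beside the tumour on top of an antibody conjugate against PD-L1, was compared with the conjugate alone in the RNA of MC38 tumours. The comparison set the 2 libraries of tumours given both agents (R+X) against the 2 libraries of tumours given the conjugate (RP), which made 4 of the 12 libraries of the study, and covered all genes. MC38 is a mouse colon carcinoma line, here grown under the skin of the left flank of 8-week-old C57BL/6J mice. RP mice received 20 µg (0.8 mg/kg) of Ru-PD-L1, an antibody against PD-L1 joined to a catalyst, into the peritoneum every 3 days from day 9. R+X mice received Ru-PD-L1, at a dose, route and schedule that are not stated for this group, and 6 hours later 14 µg of DOX injected beside the tumour. The label R+X is read as this combination because X occurs in DOX and not in DPD. Tumours of all groups were taken on day 20. The other groups used here were tumours of mice given PBS (Ctrl) or 14 µg (0.56 mg/kg) of DOX alone (DOX) into the peritoneum on the same days, and tumours given Ru-PD-L1 and 6 hours later DPD, read as a prodrug of DOX, beside the tumour (R+D), each with 2 libraries. The labels give no mouse genotype beyond the strain, and they do not say whether a library came from 1 mouse or from a pool. RP tumours had no such local injection. In R+X against RP the drug, the injection and any difference in the giving of the conjugate cannot be told apart.

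DOX is an anthracycline that enters DNA and traps topoisomerase II on it, and the breaks that follow are known to switch on p53 and its target genes and to kill dividing cells. PD-L1 on tumour and myeloid cells binds the receptor PD-1 on T cells and restrains them, so antibodies against PD-L1 are used to release T cells that kill tumour cells and secrete interferon gamma. Interferon gamma acts through transcription factors such as IRF1 on guanylate-binding proteins, immunity-related GTPases, chemokines that draw T cells, antigen presentation genes and PD-L1 itself.

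Library totals of the 4 libraries ran from 47462762 to 56462259 counts. Log2 CPM (counts scaled to library size with TMM factors) correlated at 0.983 between the R+X libraries and at 0.974 between the RP libraries, and from 0.970 to 0.978 across the groups. Markers of a neighbouring tissue moved with the groups: the mean log2 CPM of 25 skeletal muscle genes was 3.59 and 2.22 in RP, 0.73 and 0.11 in R+X, and 3.87 in R+D replicate 2. A list of 22 skin and hair genes split the replicates instead, at -1.30 and 3.16 in RP and 1.14 and -2.18 in R+X. Of 16 epithelial genes, 10 reached the level for testing, and their summed level ran from 23.4 to 32.5 CPM over the 4 libraries. The keratins Krt8 and Krt18 had 24 and 27 counts over all 12 libraries together and Cdx2 had 0, so defining epithelial markers were near 0 in tumours of this colon line. T cell receptor constant genes and Ighm were also at or near 0 in the table (7 counts of Trac, 0 of Trbc1, Trbc2 and Ighm), so T and B cells were read here from other genes.

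Genes of interferon gamma, T cells and cytotoxic lymphocytes were lower in R+X than in RP, as were vessel, complement and neutrophil genes. Targets of p53 lay close to 0. The lowest list median was that of skeletal muscle genes, -2.81. With a score of muscle genes in the fit, fewer genes of each of these lower lists reached an unadjusted p under 0.05. The share of all genes that were lower at that p fell too, from 6.43% to 1.46%. The median of the interferon gamma list hardly moved in that fit, while those of T cell, cytotoxic and vessel genes became smaller in size. No single gene passed the test across all genes: edgeR's quasi-likelihood test called 0 of 19525 genes (0%) at an adjusted p under 0.05, with a smallest adjusted p = 0.0609. At an unadjusted p under 0.05, called nominal from here on, 1255 genes (6.43%) were lower and 439 (2.25%) were higher. At an adjusted p under 0.10 there were 6 genes, all lower (0.0307%). DESeq2, run on the same counts, called 270 genes lower (1.38%) and 35 higher (0.179%), limma-voom called 5 lower (0.0256%), and edgeR on only the RP and R+X libraries called 1 (0.00545%), the chemokine gene Ccl8, lower. All 305 genes that DESeq2 called were nominal in edgeR. DESeq2 gave 2272 of the 19525 genes no adjusted p, and its shares here are over all 19525. The typical gene differed little: the median log2 fold change was -0.0029, the median absolute value 0.215, and the median standard error 0.288. The sign was negative for 50.4% of genes. The groups did not overlap for 4626 genes in the lower direction (23.7%) and 4435 in the higher (22.7%), so non-overlap is common with 2 libraries a group. These shares over all genes are the background for the list counts below. The shares of the other fits are given with the interferon gamma list. In bulk tumour RNA, fewer cells of a type and less RNA per cell cannot be told apart.

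The 10 lower genes of smallest p with non-overlapping groups and at least 1 CPM held interferon-induced and endothelial genes. Plac8, which encodes a small cysteine-rich protein of leukocytes, was at 17.8 and 12.9 CPM in RP and at 3.56 and 3.54 in R+X. Gja4, the gene of a connexin that couples cells of arterial endothelium, was at 40.2 and 31.7 CPM in RP and at 10.1 and 6.56 in R+X. R+X was lower by 2.11 ± 0.26 log2 units (SE) for Plac8 and 2.11 ± 0.28 for Gja4, each with an edgeR adjusted p = 0.0609. Serpina3g, a serine protease inhibitor gene induced by interferon gamma, was at 131 and 134 CPM in RP and at 60.2 and 53 in R+X, lower by 1.23 ± 0.16 (edgeR adjusted p = 0.0609). Zbp1, a sensor of left-handed nucleic acid that can start necroptosis, was at 76.4 and 71.0 CPM in RP and at 33.2 and 26.0 in R+X (log2 fold change -1.32 ± 0.17). Apol10b, of the apolipoprotein L family, was at 25 and 23.6 CPM in RP and at 10.1 and 9.01 in R+X (-1.35 ± 0.18). Both shared the edgeR adjusted p = 0.0609. Groups without overlap were a condition for all genes of this set and are no result about them. Reads of close paralogs may be counted within Serpina3g and Apol10b. On GRCm38 these 5 protein-coding genes lie at chr5:100551589-100572253 (Plac8), chr4:127311420-127314039 (Gja4), chr12:104236147-104241939 (Serpina3g), chr2:173206612-173218959 (Zbp1) and chr15:77584154-77598542 (Apol10b).

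The other genes of this set had edgeR adjusted p from 0.148 to 0.15. Gbp2, a guanylate-binding protein that attacks vacuoles holding pathogens, was at 676 and 899 CPM in RP and at 346 and 216.9 in R+X (-1.49 ± 0.24). Uba7, the enzyme that activates the ubiquitin-like protein ISG15, was at 44.2 and 47.5 CPM against 25.2 and 24.0 (-0.90 ± 0.14). Sox18, a transcription factor of vessel endothelium, was at 15.8 and 15 CPM against 6.29 and 6.16 (-1.31 ± 0.21). For each of the 3 the lowest RP library stood above the highest R+X library, as the choice of the set required. AW112010, a long noncoding RNA gene, had a log2 fold change of -1.44 ± 0.23, and Grb10, an adaptor that restrains insulin receptor signalling, one of -1.71 ± 0.27. DESeq2 called all 10, with adjusted p from 3.07e-10 for Plac8 to 9.57e-06 for Sox18, while over all alternatives run the adjusted p of Plac8 ranged from 3.07e-10 to 1.00. When a skeletal muscle score (the mean log2 CPM of the muscle list) entered the fit, their log2 fold changes ran from -1.83 for Plac8 to -0.89 for Uba7. Ctrl values are given for 3 of these 10 genes, and they stood near the R+X level. In Ctrl tumours Gja4 was at 7.57 and 7.13 CPM, Serpina3g at 53.7 and 44.0, and Zbp1 at 30.8 and 28.5. The genes were picked for a difference between RP and R+X, so this nearness is no separate support.

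**Figure D1:**
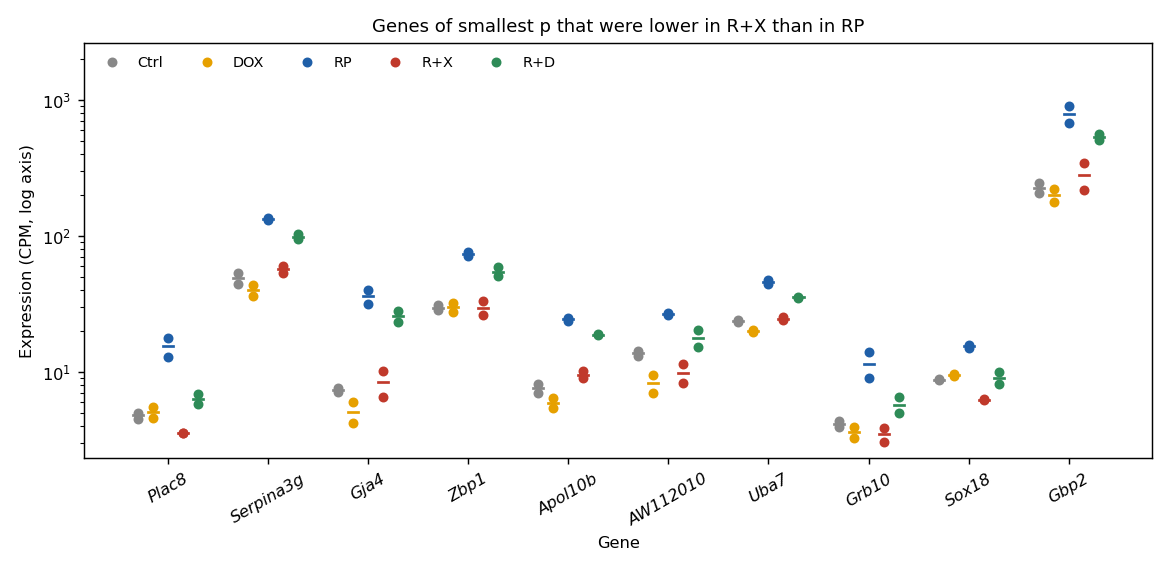
Expression of the 10 lower genes of smallest p in R+X against RP, in CPM on a log axis, in the groups Ctrl, DOX, RP, R+X and R+D. Points are libraries and bars are means of 2 libraries. Both RP points lie above both R+X points for every gene, as the choice of these genes required. For Gja4 they are at 40.2 and 31.7 CPM in RP and at 10.1 and 6.56 in R+X. For Gja4 the Ctrl points, at 7.57 and 7.13 CPM, lie closer to the R+X points than to the RP points.

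Interferon gamma response genes were lower as a group. All 28 listed genes were tested, all 28 were lower in R+X, 26 were nominal (6.43% over all genes tested) and 27 had non-overlapping groups (23.7% over all genes). Their median log2 fold change was -1.19, against -0.0029 over all genes tested, and single values ran from -1.83 for Gbp4 to -0.33 for Ciita. The mean log2 CPM of the list was 6.47 and 6.73 in RP, 5.69 and 5.18 in R+X, and 5.32 and 4.99 in Ctrl, so the R+X libraries lay below both RP libraries and overlapped with Ctrl. None of the 28 passed edgeR over all genes, and DESeq2 called 16.

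Promoters of 3 members and of Gja4 are shown because they carry, or in the case of Gja4 do not carry, the letters that interferon-activated factors are known to bind. Each is the stretch of 250 bases before the first listed start, taken from RefSeq on GRCm38.p6. Capitals mark a match to GAAA, NN and GAAA in a row, N being any base (like the interferon-stimulated response element bound by IRF factors) or to TTCNNNGAA (like the gamma-activated site), searched on both strands. Gbp2 lies at chr3:142620413-142620662, plus strand; Cxcl10 at chr5:92348890-92349139, minus strand; Serpina3g at chr12:104235897-104236146, plus strand; Gja4 at chr4:127314040-127314289, minus strand.
Gbp2: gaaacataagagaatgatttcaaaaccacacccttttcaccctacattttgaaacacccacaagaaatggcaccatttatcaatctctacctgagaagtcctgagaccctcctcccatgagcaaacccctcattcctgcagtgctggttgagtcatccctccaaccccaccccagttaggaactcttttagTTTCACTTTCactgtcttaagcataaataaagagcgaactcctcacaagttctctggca
Cxcl10: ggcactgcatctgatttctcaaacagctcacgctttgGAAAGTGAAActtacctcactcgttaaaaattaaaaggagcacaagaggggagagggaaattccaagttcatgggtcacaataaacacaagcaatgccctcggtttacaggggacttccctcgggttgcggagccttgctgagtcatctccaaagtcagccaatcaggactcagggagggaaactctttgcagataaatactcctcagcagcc
Serpina3g: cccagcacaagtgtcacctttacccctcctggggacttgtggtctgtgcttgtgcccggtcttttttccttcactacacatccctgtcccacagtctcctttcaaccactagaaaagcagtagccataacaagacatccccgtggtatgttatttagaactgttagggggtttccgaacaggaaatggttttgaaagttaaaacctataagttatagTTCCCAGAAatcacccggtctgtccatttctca
Gja4: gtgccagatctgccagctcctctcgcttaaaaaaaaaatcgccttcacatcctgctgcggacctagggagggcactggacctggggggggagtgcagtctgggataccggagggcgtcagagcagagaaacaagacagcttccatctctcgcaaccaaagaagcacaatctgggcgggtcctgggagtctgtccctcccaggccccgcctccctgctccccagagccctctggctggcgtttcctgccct

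In Gbp2 the match TTTCACTTTC reads as the first motif on the other strand and begins 59 bases before the start, in Cxcl10 GAAAGTGAAA begins 213 bases before it, and in Serpina3g TTCCCAGAA begins 33 bases before it. Of 32851 promoters of the table, 2.98% held the first motif, 7.02% the second and 9.66% at least 1 of them. With only the first listed start of each gene tested, as for the lists, the shares of 13660 promoters were 2.8%, 6.16% and 8.62%. Of the 17 interferon gamma response genes with a promoter in the table, 11 held the first motif (64.7%), 9 the second (52.9%) and 14 at least 1 (82.4%). Among type I interferon genes, whose median log2 fold change was near 0, at least 1 motif was held by 10 of 18 (55.6%), among T cell genes by 1 of 12 (8.33%) and among endothelial genes by 0 of 14. A match is a description of letters in this window and shows no binding.

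The chemokines Cxcl9, Cxcl10 and Cxcl11, which draw T cells carrying the receptor CXCR3, were all lower. Cxcl10 was at 134 and 139 CPM in RP and at 68.4 and 44.7 in R+X, lower by 1.27 ± 0.25 log2 units (edgeR adjusted p = 0.176). Cxcl9 was at 113 and 122 CPM against 62.9 and 42.8 (-1.16 ± 0.35, edgeR adjusted p = 0.321), and Cxcl11 had a log2 fold change of -1.70. The groups did not overlap for Cxcl9 or Cxcl10. Cd274, which encodes PD-L1, the antibody's target, was at 46.0 and 70.9 CPM in RP, at 26.9 and 24.7 in R+X and at 21.4 and 19.3 in Ctrl. Both R+X values lay below the lower RP value, with a log2 fold change of -1.18 ± 0.27 (edgeR adjusted p = 0.252). Transcription factors of the IRF family were lower too, at -0.83 for Irf1 and -0.75 ± 0.16 for Irf8, and the GTPases Ifi47, Igtp, Irgm1 and Iigp1 ran from -1.31 to -0.85. The cytokine gene Ifng was low everywhere, at 1.83 and 1.45 CPM in RP and at 0.807 and 0.574 in R+X (-1.25 ± 0.69, edgeR adjusted p = 0.718).

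In the fit with the muscle score the median of the interferon gamma list was -1.20, with 16 nominal members (1.46% of all genes were nominally lower in that fit and 0.707% higher). Without RP replicate 1, the library richer in muscle genes, 24 members were nominal and the median was -1.26 (3.09% lower and 1.11% higher over all genes). The count was 18 without RP replicate 2 (5.23% lower, 1.94% higher), 27 without R+X replicate 1 (4.30% lower, 1.52% higher) and 15 without R+X replicate 2 (2.78% lower, 0.934% higher). The medians were -0.90, -1.41 and -0.94.

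Genes known mainly from the type I interferon response had a median nearer to 0. Of 25 tested, 5 were nominally lower (6.43% over all genes), 18 were negative (50.4%) and the median was -0.10. The 5 were Zbp1, Xaf1, Oas2, Oas3 and Bst2, while Ifit1 (0.62), Mx1 (0.27) and Rsad2 (0.22) were on the positive side without passing. The median turned to 0.02 without RP replicate 1 and was -0.41 with the muscle score in the fit. For antigen presentation on MHC class I, 9 of 19 genes were nominally lower (6.43% over all genes) and the median was -0.41. The nominal members included the peptide transporter and its partners. Tap1 was at 144 and 144 CPM in RP and at 97.3 and 76.2 in R+X (-0.73 ± 0.22), and Tapbp, which couples the transporter to MHC class I, at 324 and 306 against 221 and 177 (-0.66 ± 0.17). The heavy chain genes H2-K1 and H2-D1 and the light chain gene B2m had log2 fold changes of -0.21, -0.13 and -0.03. The MHC class I count was 3 without RP replicate 1, 1 without R+X replicate 2 and 0 with the muscle score in the fit, where the median was -0.23, 6 genes were positive and Tap1 was at -0.37. Of 11 MHC class II genes tested, only the protease gene Ctss was nominally lower (-0.47 ± 0.19), beside 6.43% over all genes. The median was -0.33, and the invariant chain gene Cd74 at 937 and 546 CPM in RP overlapped with 568 and 615 in R+X. Without RP replicate 1 this median turned positive, to 0.24, and with the muscle score in the fit it was 0.02.

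**Figure D2:**
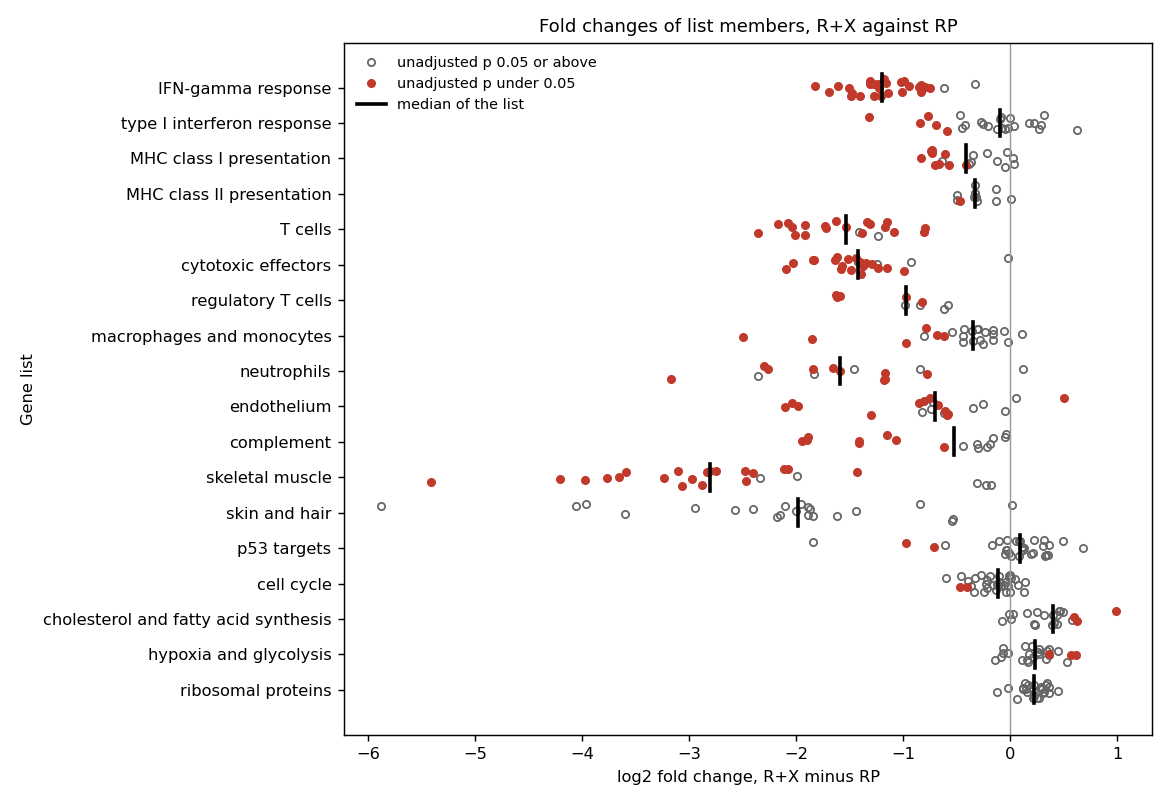
Log2 fold change of R+X minus RP for every tested member of 18 gene lists; each point is a gene, filled red where its unadjusted p was under 0.05, and black bars are medians of the lists. Interferon gamma response (-1.19), T cells (-1.53) and cytotoxic effectors (-1.43) lie left of 0 as whole lists. The p53 targets lie around 0.09 and cholesterol and fatty acid synthesis around 0.40.

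Markers of T cells were lower as a list. Of 24 listed genes 21 were tested, all 21 were negative and the median was -1.53. All 21 had non-overlapping groups (23.7% over all genes), and 19 were nominally lower (6.43%). The mean log2 CPM of the list was 1.95 and 1.74 in RP, 0.69 and -0.09 in R+X, and 0.77 and 0.44 in Ctrl. Cd247, the zeta chain of the T cell receptor complex, was at 2.22 and 1.97 CPM in RP and at 0.662 and 0.268 in R+X (-2.17 ± 0.46). The adaptor gene Lat was at 6.14 and 4.56 CPM against 1.66 and 1.17 (-1.92 ± 0.42), and the kinase gene Zap70 at 6.18 and 4.67 against 2.61 and 1.68 (-1.34 ± 0.31). The groups did not overlap for any of the 3 genes, with edgeR adjusted p from 0.233 to 0.253. The co-receptor gene Cd8a was at 8.27 and 13.1 CPM against 6.99 and 3.10 (-1.09 ± 0.44), and Cd4 at 4.99 and 1.87 against 1.18 and 0.631 (-1.92 ± 0.59).

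Cytotoxic effector genes were lower as a list too. All 23 listed genes were negative and the median was -1.43. Of them 19 were nominal (6.43% over all genes) and 21 had non-overlapping groups (23.7%). Gzmb, the protease that cytotoxic cells pass into their targets, was at 18.7 and 34.5 CPM in RP and at 10.7 and 7.27 in R+X (-1.57 ± 0.38, edgeR adjusted p = 0.268). Prf1, which forms the pore, was at 19.0 and 36.9 CPM against 13.6 and 11.6 (-1.15 ± 0.38), and the chemokine gene Ccl5 at 16.8 and 12.7 against 5.24 and 5.28 (-1.49 ± 0.31). The groups did not overlap for these 3 genes, although the RP libraries themselves differed widely for Gzmb and Prf1. The receptors of natural killer and activated T cells Klrk1 (-1.40 ± 0.31) and Klrd1 (-1.52 ± 0.38) lay in the same range, while the transcription factor gene Eomes was at -0.02.

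Regulatory T cell and checkpoint genes were lower with them. Of 9 regulatory T cell genes 5 were nominally lower (6.43% over all genes) and the median was -0.97. Foxp3, the factor that defines these cells, was at 3.61 and 2.13 CPM in RP and at 1.06 and 0.803 in R+X (-1.63 ± 0.48, edgeR adjusted p = 0.318), without overlap. Of 13 checkpoint genes 6 were nominally lower (6.43% over all genes), with a median of -0.77. Pdcd1, which encodes PD-1, was at 4.31 and 6.19 CPM against 3.62 and 1.59 (-1.01 ± 0.37), Ctla4 had a log2 fold change of -1.62 ± 0.61, and Tigit and Tox lay at -0.07 and 0.02.

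The muscle genes moved with the same groups as these lymphocyte lists. With the muscle score in the fit 2 T cell, 3 cytotoxic and 0 regulatory T cell genes were nominally lower (1.46% over all genes in that fit). The medians were -0.76, -0.78 and -0.68. Of the checkpoint genes 2 were nominal in that fit, with a median of -0.39 and Ctla4 at -0.23, and Cd4 was at -0.30. The score itself differs between RP and R+X, so that fit divides the same difference between the score and the group. Without RP replicate 1, 14 T cell, 14 cytotoxic and 1 regulatory T cell genes were nominal, and without R+X replicate 2, 10, 12 and 1. The median of the T cell list was -1.32 without RP replicate 1.

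**Figure D3:**
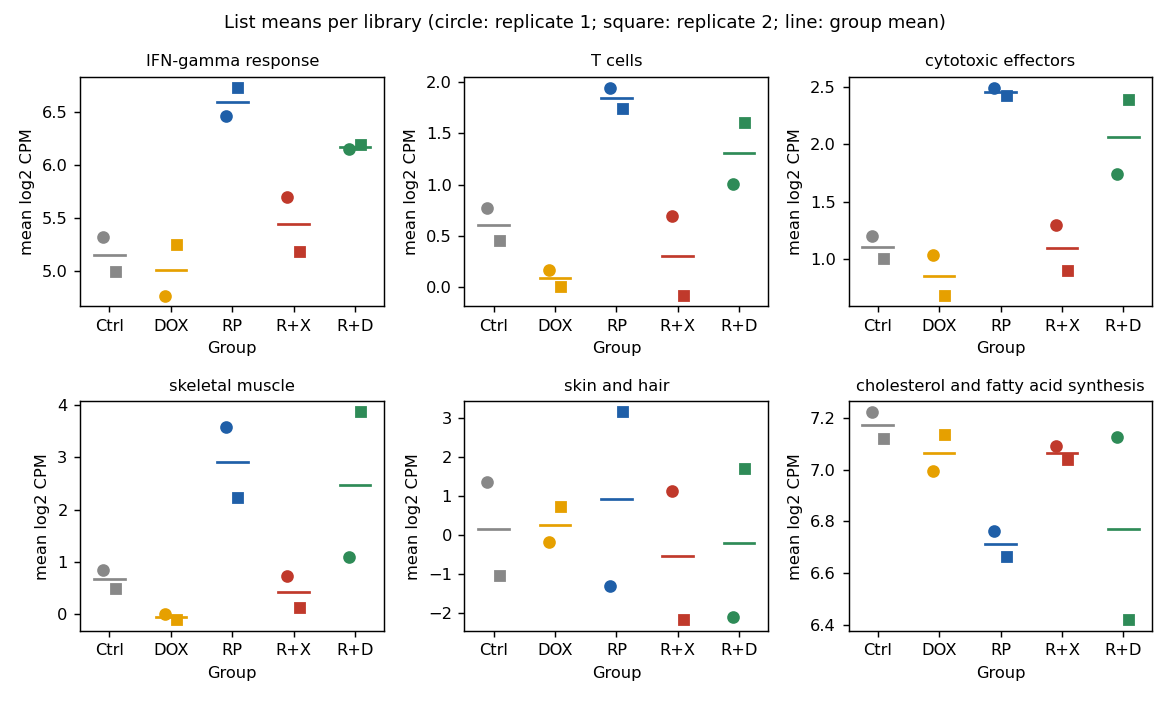
Mean log2 CPM of 6 gene lists in each library of 5 groups; circles are replicate 1, squares replicate 2 and lines group means of 2 libraries. The RP libraries are highest for interferon gamma response (6.47 and 6.73) and R+X (5.69 and 5.18) lies nearer to Ctrl (5.32 and 4.99); muscle is high in both RP libraries (3.59 and 2.22) and in R+D replicate 2 (3.87), and skin is high in RP replicate 2 (3.16).

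Among the myeloid lists, that of neutrophils had the lowest median. Of 19 listed genes 15 were tested, 14 were negative, 10 were nominally lower (6.43% over all genes) and the median was -1.59. Csf3r, the receptor for granulocyte colony-stimulating factor, was at 6.80 and 8.17 CPM in RP and at 2.73 and 1.45 in R+X (-1.84 ± 0.33, edgeR adjusted p = 0.159). Mmp8, neutrophil collagenase, was at 4.35 and 7.83 CPM against 2.59 and 2.83 (-1.17 ± 0.33). The defining genes Ly6g, Ngp, Retnlg and Cxcr1 had from 14 to 60 counts over all 12 libraries together and were not tested. RP replicate 2 was the higher library in this list (1.86 against 1.15 mean log2 CPM), and 3 genes were nominal without it, as were 3 without R+X replicate 2. Macrophage and monocyte genes showed a median of -0.35, with 6 of 24 nominally lower (6.43% over all genes). They included the inducible nitric oxide synthase gene Nos2, at 43.2 and 98.4 CPM against 21.2 and 18.0 (-1.85 ± 0.50), and the scavenger receptor gene Cd163 (-2.50 ± 0.65). General macrophage genes lay nearer to 0, among them Adgre1 (-0.35), Csf1r (-0.28) and Cd68 (0.11). Dendritic cell genes had a median of -0.71, with 5 of 17 nominal and 1 without RP replicate 1. Among B and plasma cell genes 2 of 8 tested were nominally lower (6.43% over all genes). Jchain, which joins secreted antibodies of IgA and IgM type, was at 23.2 and 14.5 CPM against 2.48 and 0.478. With the muscle score in the fit 1 neutrophil, 3 macrophage, 1 dendritic cell and 0 B and plasma cell genes were nominally lower, with medians of -1.08, -0.21, -0.41 and -0.27, and Jchain moved from -3.67 to -1.86.

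Inflammatory cytokines and complement were lower as well. Of 27 genes of the NF-kB and cytokine list 26 were negative, 11 were nominally lower (6.43% over all genes) and the median was -0.70. Osm, a cytokine of activated myeloid cells, was at 4.93 and 5.04 CPM in RP and at 2.01 and 1.05 in R+X (-1.70 ± 0.33), and Il1b at 10.3 and 18.2 against 6.50 and 3.58 (-1.50 ± 0.43). The adhesion gene Icam1, which holds leukocytes on endothelium, was at 17.7 and 11.6 CPM against 8.40 and 6.56 (-0.97 ± 0.24). None of the 3 genes had overlapping groups. In the NF-kB list 3 genes were nominal without R+X replicate 2. All 16 complement genes were negative, 8 were nominal (6.43% over all genes) and the median was -0.53. C1ra, a protease of the first component, was at 68.2 and 55.9 CPM against 31.3 and 27.8 (-1.07 ± 0.19), and C1s1 at 123 and 115 against 50.5 and 38.8 (-1.41 ± 0.29), both with close replicates. Serping1, the inhibitor of that component, was at 83.0 and 35.8 CPM against 17.7 and 13.1 (-1.95 ± 0.34), the higher value in the muscle-rich RP replicate 1. Without that library 4 complement genes were nominal and the median was -0.27. With the muscle score in the fit 2 genes of the NF-kB list and 3 of complement were nominal, with medians of -0.56 and -0.31, and Serping1 was at -1.11.

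Vessel and matrix genes differed in part. Of 20 endothelial genes 18 were negative, 11 were nominally lower (6.43% over all genes) and the median was -0.70. Apln, a peptide made by sprouting tips, was the 1 nominally higher (2.25% over all genes). Pecam1, a junction protein of all endothelium, was at 47.3 and 35.0 CPM in RP and at 25 and 23.9 in R+X (-0.75 ± 0.18, edgeR adjusted p = 0.271). The arterial genes Gja4 (-2.11), Gja5 (-2.04) and Sox17 (-1.30) and the receptor gene Tek (-1.98) were lower, and the growth factor receptor genes Kdr and Flt1 had log2 fold changes of -0.74 and -0.05. With the muscle score in the fit 1 endothelial gene was nominally lower, the median was -0.44, Tek was at -0.79, Sox17 at -0.61 and Pecam1 at -0.40. Without RP replicate 1, 3 endothelial genes were nominal and the median was -0.40. Of 22 fibroblast and matrix genes 8 were nominally lower (6.43% over all genes) and 2 higher (2.25%), with a median of -0.10. Col1a1, the main collagen of connective tissue, was at 1859 and 755 CPM against 352 and 402 (-1.79 ± 0.42), and Lum, a proteoglycan, at 31.7 and 10.8 against 3.48 and 4.17 (-2.47 ± 0.53). Both were highest in RP replicate 1. Postn, an adhesion protein of activated fibroblasts, was at 239 and 158 CPM against 75.7 and 100 (-1.17 ± 0.26). With the muscle score in the fit 0 fibroblast and matrix genes were nominal in either direction, Col1a1 was at -0.66 and Lum at -0.81. Mmp2 (0.66) and Col6a1 (0.45) were the nominally higher members, and Col3a1 was at 0.47.

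Genes of skeletal muscle, which lies beneath a flank tumour, showed the largest list median, -2.81. Of 25 genes 20 were nominally lower (6.43% over all genes). Acta1, skeletal actin, was at 80.7 and 32.5 CPM in RP and at 8.03 and 4.00 in R+X (-3.24 ± 0.85, edgeR adjusted p = 0.278), and Myh4, a fast myosin, at 34.2 and 10.5 against 0.807 and 0.249 (-5.41 ± 1.49). The Ctrl libraries, at 12 and 9.05 CPM of Acta1, lay nearer to R+X. Without RP replicate 1 the list median was -1.69 with 9 nominal genes. The 22 skin genes had a median of -1.98 with 0 nominal, and RP replicate 2 was the library highest in them. Krt10, a keratin of upper epidermis, was at 5.31 and 34.2 CPM in RP and at 7.74 and 5.15 in R+X, with wide overlap. The 5 haemoglobin and red cell genes tested had a median of -0.59 with 0 nominal. Adipocyte genes had one of -1.09 with 3 of 8 nominally lower (6.43% over all genes). How far carried-over tissue takes part in the other lists was not tested beyond the fits given.

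Genes of the p53 response that anthracyclines are known to induce differed little. Of 30 p53 targets 0 were nominally higher (2.25% over all genes) and the median was 0.09. Nominally lower were 2, near the share over all genes (6.43%). The groups did not overlap for 10 targets in the higher direction (22.7% over all genes) and for 4 in the lower (23.7%). The largest log2 fold change was 0.68, for Eda2r. Tumours were taken only on day 20, so an earlier response was not tested. Cdkn1a, which encodes the cell cycle inhibitor p21, was at 89.1 and 82.5 CPM in RP and at 89.2 and 93.4 in R+X (0.09 ± 0.20). Mdm2, the ligase that returns p53 to its resting level, was at 41.9 and 54.1 CPM against 51.0 and 61.0 (0.22 ± 0.18). The groups met at 89.1 and 89.2 CPM for Cdkn1a and overlapped for Mdm2. Trp53 itself was at 485 and 492 CPM against 479 and 471 (-0.04 ± 0.19), Bax at 63.0 and 41.4 against 46.4 and 54.4, and Bbc3 at 29.4 and 18.1 against 30.3 and 30.9 (0.36 ± 0.36). Gdf15, a stress cytokine, was at 20.0 and 17.8 CPM against 27.0 and 21.1 (0.35 ± 0.44). The nominally lower members were Btg2, an antiproliferative gene (-0.97 ± 0.20), and the death receptor gene Fas (-0.71 ± 0.28).

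Drug targets and division genes lay near 0 or slightly below. Top2a, the topoisomerase that DOX traps in dividing cells, was at 883 and 1069 CPM in RP and at 807 and 708 in R+X (-0.37 ± 0.20, edgeR adjusted p = 0.725), and Top2b, the form of resting cells, was at 128 and 151 against 137 and 138 (-0.02 ± 0.27). The efflux pump genes Abcb1a (-0.02 ± 0.28) and Abcb1b (-0.20 ± 0.20) lay near 0. Of 36 cell cycle genes 31 were negative (50.4% over all genes) and the median was -0.11. Nominally lower were 2 (Mybl2 and Rrm2), near the share over all genes (6.43%). The proliferation marker Mki67 was at 498 and 575 CPM against 375 and 332 (-0.60 ± 0.28, edgeR adjusted p = 0.602). The DNA repair list had a median of -0.14 with 1 of 29 nominally lower, under the share over all genes (6.43%). The apoptosis list had one of -0.01 with 0 of 26 nominal. Of 20 genes of pyroptosis, necroptosis and danger signals 4 were nominally lower (6.43% over all genes) and 1 higher (2.25%). The median of that list was -0.20. Among signals of dying cells, Calr (0.03 ± 0.17) and Hmgb1 (-0.00 ± 0.20) lay near 0, while Ripk3, the kinase of necroptosis, was at 8.72 and 7.37 CPM against 4.43 and 3.81 (-0.97 ± 0.22). Gsdme, the pore protein of pyroptosis, was at 3.80 and 2.99 CPM against 3.19 and 2.91.

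Fewer genes were nominally higher than lower. The 10 higher genes of smallest p that had a symbol, no overlap between groups and a mean reaching 1 CPM showed log2 fold changes from 0.55 to 1.25 and edgeR adjusted p from 0.252 to 0.278. Nr2f1, an orphan nuclear receptor, was at 37.0 and 41.0 CPM in RP, at 65.9 and 72.3 in R+X and at 86.1 and 90.1 in Ctrl (0.82 ± 0.19). Both R+X values lay above both RP values, as the choice of this set required, and below both Ctrl values. Acot2, a mitochondrial thioesterase of fatty acids, was at 11.8 and 15.6 CPM against 23.8 and 24.7 (0.82 ± 0.20), and Emp1, a membrane protein, at 953 and 1038 against 1466 and 1655 (0.65 ± 0.16). The linker histone gene H1f2 was at 51.9 and 55.1 CPM in RP and at 88.4 and 166 in R+X (1.25 ± 0.29), with R+X replicate 2 well above its mate. Flcn, a regulator of lysosomal growth signalling, was at 60.1 and 58.7 CPM against 83.7 and 103 (0.65 ± 0.17). Foxf1, a transcription factor of mesenchyme, was at 69.3 and 76.5 CPM against 104 and 109 (0.55 ± 0.14). Mex3b, Sspn and Gpnmb ran from 0.63 to 0.78. DESeq2 called all 10, with adjusted p from 0.00631 to 0.0305, while over all alternatives run the adjusted p of each reached 1.00.

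**Figure D4:**
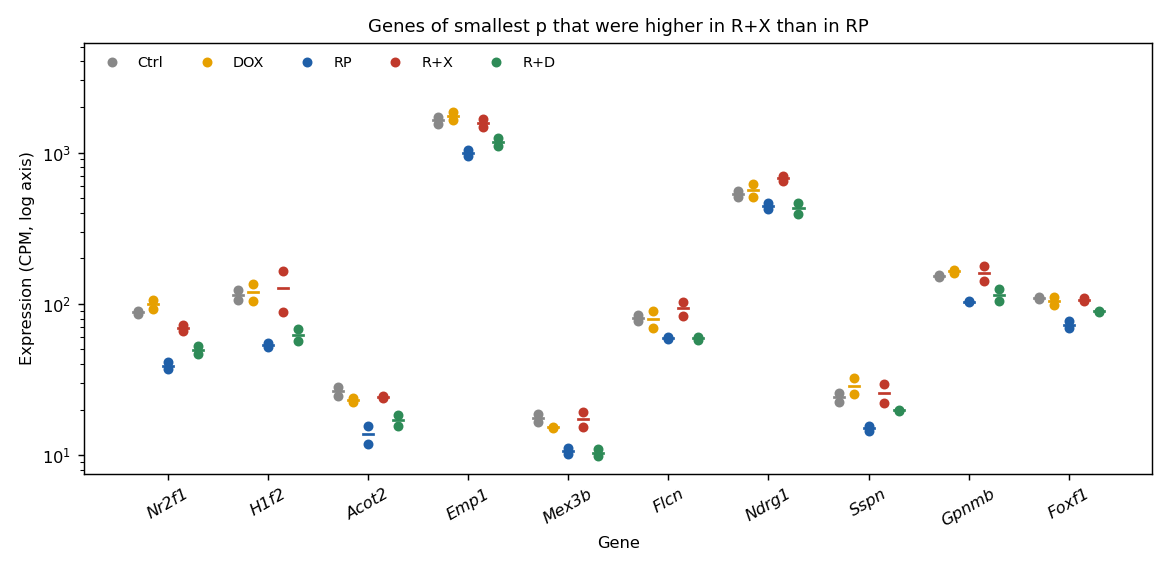
Expression of the 10 higher genes of smallest p in R+X against RP, in CPM on a log axis, in the groups Ctrl, DOX, RP, R+X and R+D; points are libraries and bars are means of 2 libraries. Both R+X points lie above both RP points for every gene, as the choice of these genes required. For Nr2f1 they are at 65.9 and 72.3 against 37.0 and 41.0 CPM.

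Lists of metabolism were on the higher side with few genes past a nominal p. Of 21 cholesterol and fatty acid synthesis genes 19 were positive, 17 had non-overlapping groups (22.7% over all genes), 3 were nominally higher (2.25%) and the median was 0.40. The desaturase gene Scd1 was at 199 and 224 CPM in RP and at 304 and 336 in R+X (0.60 ± 0.19), and Lss, lanosterol synthase, at 55.0 and 56.0 against 84.0 and 87.1 (0.62 ± 0.25). The groups were well separated for both, with edgeR adjusted p of 0.346 and 0.483. With the muscle score in the fit the median changed sign to -0.18, Lss to -0.03, and 0 genes were nominal. Of 24 hypoxia and glycolysis genes 3 were nominally higher (2.25% over all genes) and the median was 0.23. Ndrg1, a gene induced by hypoxia, was at 421 and 461 CPM against 651 and 701 (0.62 ± 0.16), and the carbonic anhydrase gene Car9 at 17.8 and 16.2 against 23.7 and 26.7 (0.57 ± 0.22). In the list of endoplasmic reticulum stress 1 of 22 was nominally higher (Herpud1, 0.51 ± 0.16), beside 2.25% over all genes, and the median was 0.25. Ribosomal protein genes had a median of 0.22 with 24 of 26 positive and 0 nominal, and 0.02 without RP replicate 2. None of these genes passed edgeR over all genes.

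DOX without the conjugate was compared through DOX against Ctrl, which shares no library with R+X against RP but differs in route, peritoneum against tumour margin. EdgeR called 0 of 19525 genes (0%), with a smallest adjusted p = 0.290, and 239 genes were nominally lower (1.22%) and 168 higher (0.860%). DESeq2 called 1 gene. Interferon gamma response genes had a median of -0.10 with 0 of 28 nominal, cytotoxic genes -0.26 with 0 of 23, and T cell genes -0.58 with 3 of 21. Neutrophil genes were on the positive side, with a median of 0.38 and 0 nominal. MHC class II genes had a median of -0.64 with 6 of 11 nominally lower. The p53 list lay at 0.01 here too. Across 19525 genes the log2 fold changes of both comparisons correlated at a Pearson r of 0.134 and a Spearman rho of 0.102; genes are not independent replicates, and no test was made of this value.

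The difference between the DOX differences, with the conjugate minus without it, was tested in the same fit. EdgeR called 0 genes (0%), with a smallest adjusted p = 0.998, 537 were nominally lower (2.75%) and 187 higher (0.958%). DESeq2 called 6, all lower. Of the 28 interferon gamma response genes 18 were nominally lower in this difference, with a median of -1.06, and of the 23 cytotoxic genes 10 (median -1.20), of the 21 T cell genes 3 (-0.98) and of the 15 neutrophil genes 6 (-2.03). Muscle genes moved with this difference too, with a median of -2.14 and 5 of 25 nominally lower, and skin genes had a median of -2.20 with 0 nominal. The single genes given next were picked for a small p in R+X against RP. That comparison is part of this difference, so their values describe it and are no separate support. For Plac8 the difference was -2.19 ± 0.36, for Sox18 -1.42 ± 0.30 and for Zbp1 -1.32 ± 0.24. DOX alone moved these genes by 0.08 ± 0.25, 0.11 ± 0.21 and 0.01 ± 0.17. For Gja4 it was -1.57 ± 0.38 beside -0.54 ± 0.27 with DOX alone, and for Serpina3g -0.93 ± 0.22 beside -0.29 ± 0.16.

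**Figure D5:**
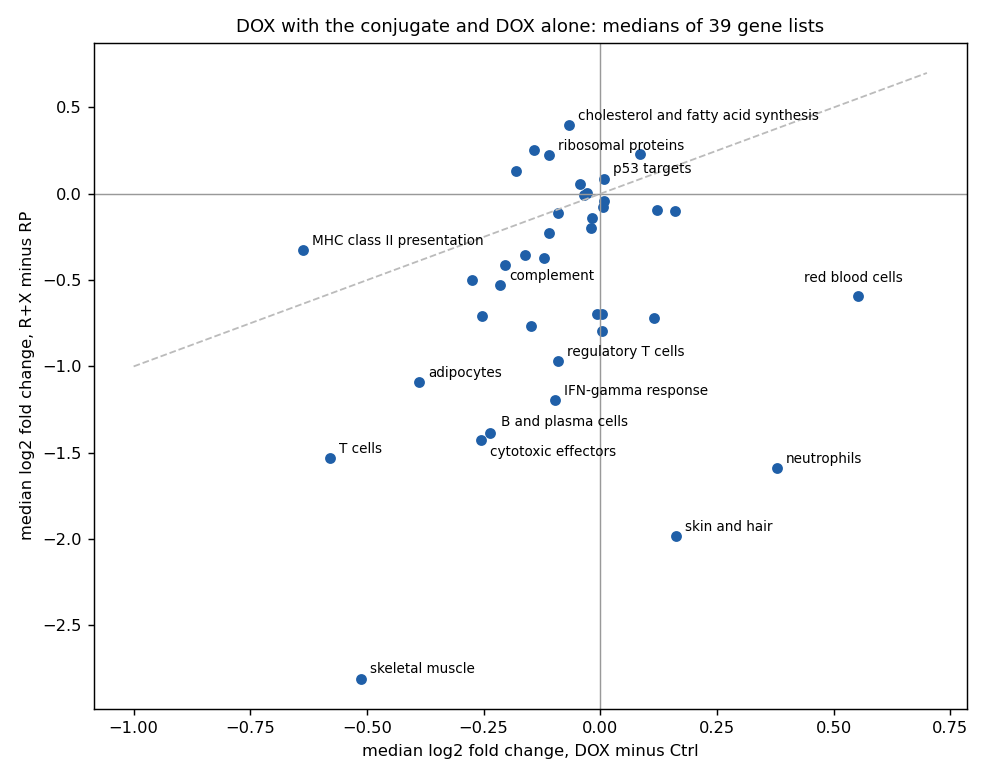
Medians of 39 gene lists for DOX minus Ctrl (horizontal, log2) and R+X minus RP (vertical, log2), with the dashed line of equal values; the comparisons share no library. Skeletal muscle (-2.81), skin and hair (-1.98), neutrophils (-1.59), T cells (-1.53) and interferon gamma response (-1.19) lie far below the line, while p53 targets (0.09) lie near the origin.

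Both combined groups had an injection beside the tumour after the conjugate, so R+X was set against R+D, in which the drug was DPD. EdgeR called 0 genes (0%), with a smallest adjusted p = 0.763, 732 were nominally lower in R+X (3.75%) and 296 higher (1.52%), and DESeq2 called 35 lower and 7 higher. Of the interferon gamma response genes all 28 were lower in R+X than in R+D, 17 of them nominally, with a median of -0.80. T cell genes had 13 of 21 nominally lower (median -1.13) and cytotoxic genes 10 of 23 (-1.03), beside 21 of 25 muscle genes (-2.74). The muscle list stood at 1.08 and 3.87 mean log2 CPM in R+D and at 0.73 and 0.11 in R+X. The interferon gamma list stood at 6.15 and 6.19 in R+D and at 5.69 and 5.18 in R+X. Whether carried-over muscle takes part in these differences was not tested. Gja4 was at 23.3 and 28.2 CPM in R+D and at 10.1 and 6.56 in R+X (-1.62 ± 0.27). Serpina3g was at 102 and 94.7 CPM against 60.2 and 53 (-0.80 ± 0.16). Both genes were picked from R+X against RP, which shares the R+X libraries, so these values are no separate support. Neutrophil genes had 0 of 15 nominal between the combined groups, with a median of -0.25.

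The comparisons RP against Ctrl, R+X against Ctrl and R+D against RP share libraries with R+X against RP, and their medians are given side by side only. For interferon gamma response genes they were 1.46, 0.32 and -0.42, for T cells 1.34, -0.34 and -0.60, for cytotoxic genes 1.3, -0.12 and -0.37, for muscle 2.58, -0.43 and 0.06, and for cholesterol and fatty acid synthesis -0.45, -0.07 and 0.11.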

How the data were processed

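RNA of MC38 tumours from 12 libraries in 6 groups was measured by RNA-seq. The authors deposited whole-number counts per gene, made with HISAT2 2.1.0 and StringTie 1.3.5 on GRCm38 and followed by DESeq2, per the submitters' processing notes; the tools' roles, the annotation and the strand setting were not given in the sources used here. Each of the 12 per-library files equalled its column in the table of 43698 rows. Overlapping and antisense genes can therefore share reads.

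Groups were taken from the labels, which number no replicates and do not say that the libraries came from separate mice; replicates are named here in accession order, and the p-values cover only the spread among these libraries, possibly a technical one. The members, gene lists and tests were chosen with earlier results of these data known. Counts of all libraries entered 1 edgeR 4.0.16 quasi-likelihood fit (R 4.3.3) with TMM scaling and filterByExpr, which kept 19525 genes, with 6 residual degrees of freedom; p-values were adjusted by Benjamini-Hochberg over all genes tested, with a threshold of 0.05. The standard error is the absolute log2 fold change divided by the square root of F. CPM values were computed from the counts with TMM scaling, and log2 CPM with a prior count of 2.

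The 39 gene lists were described by counts and medians without a set test. Genes in the text were the 10 of smallest p in each direction whose groups did not overlap and whose mean reached 1 CPM, up to 4 members of smallest p in each list, and a panel; other list members named to show a list's range were chosen after their values were seen. Alternatives were RLE scaling, no filter, DESeq2 1.42.0, limma-voom (limma 3.58.1), only the groups compared, each library left out, muscle, skin and red blood cell scores as covariates, summed name copies and an adjusted p under 0.10; leaving out RP replicate 1 and R+D replicate 2 together was added after seeing the data. The fits were tested on simulated counts. Promoters came from a RefSeq table on GRCm38.p6, matched by symbol.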

Additional observations from a re-analysis of the deposited data

How the results depend on the processing

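The number of genes called differed between settings. For R+X against RP edgeR called 0 genes, no low-count filter gave 5, DESeq2 305, limma-voom 5, only the groups compared 1, the red blood cell score as a covariate 1, and an adjusted p under 0.10 gave 6; leaving out 1 library gave 0 to 7, with 7 without RP replicate 2 and 5 without either DOX library. For DOX against Ctrl the count was 0, and 1 with no filter, 1 with DESeq2, 2 with only the groups compared, 1 with the red blood cell score and 0 to 1 with a library left out. For the difference between the DOX differences it was 0, and 6 with DESeq2, 1 with only the groups compared, 1 with the red blood cell score and 0 to 1 with a library left out. For R+X against R+D it was 0, and 42 with DESeq2, 2 with the skin score as a covariate and 0 to 1 with a library left out. The cause of these changes was not tested.

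The log2 fold changes of 113 genes were followed under all alternatives, and each gene was counted once in each setting. Of these values 36 changed sign, 81 passed the threshold and 2369 did neither. The sign changes fell only on the genes named in this paragraph. Hmgb1 was 0.0030 with RLE scaling and with DESeq2, 0.0023 with limma-voom, 0.057 with the muscle score, 0.0755 with the red blood cell score, 0.146 without RP replicate 1 and R+D replicate 2, and from -0.096 to 0.146 with 1 library left out. Bax was 0.0707 with the muscle score, 0.0148 with the red blood cell score, 0.317 without RP replicate 1 and R+D replicate 2, and from -0.31 to 0.317 with 1 library left out. Without RP replicate 1 and R+D replicate 2 Cd74 was 0.149 and Gsdme 0.0606, and with 1 library left out they ran from -0.652 to 0.149 and from -0.31 to 0.0607. Lss was -0.0300 with the muscle score. With 1 library left out Abcb1a ran from -0.186 to 0.171, Calr from -0.125 to 0.241, Top2b from -0.106 to 0.111 and Krt10 from -2.38 to 0.287. Of the list medians, each list counted once in each alternative, 753 moved by less than the spread between replicates and 105 by more.

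No paired analysis was possible because the labels give the samples no replicate numbers.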
